A study of Mus musculus with 8 samples.

Results

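The mitochondrial ribosomal protein genes were taken as every protein-coding mouse gene whose symbol is Mrpl or Mrps followed by a digit. The RefSeq annotation of GRCm38.p6 holds 78 such genes, and 77 of them stood among the 12830 genes of the deposited tables (Mrpl36 was not analysed here). All 77 passed the filter on low counts, which left 12330 genes for testing. Of the 77, 48 are named Mrpl and 29 Mrps, and they lie on 17 chromosomes.

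Mitochondria carry their own ribosome, the mitoribosome, which descends from that of the bacterial ancestor and translates the few proteins encoded in mitochondrial DNA, all of them subunits of the respiratory chain or of ATP synthase. Its ribosomal RNAs come from mitochondrial DNA, whereas all of its proteins are encoded in the nucleus, made in the cytosol and imported. Some of these proteins have a counterpart in bacterial ribosomes, and others were added during the evolution of mitochondria. Acute myeloid leukaemia cells are known to depend on mitochondrial translation.

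The cells were AML410, a mouse acute myeloid leukaemia on the C57BL/6 background with a monosomal karyotype, no p53 and a hairpin against PU.1 (shPU.1) linked to green fluorescent protein (GFP). All groups shared these features, and GFP+ cells were sorted from the bone marrow of leukaemic recipient mice. Recipients were untreated (GFPhigh cells) or received Dox for 2 days (GFPhigh-mid), 4 days (GFPmid) or 6 days (GFPlow), which shuts the hairpin off and lets endogenous PU.1 return, and each group had 2 libraries. The leukaemia is 1 line, and the GFP gate changed with the day, so time on Dox and gate cannot be told apart. The design text speaks of duplicate mice while the sample titles say technical replicates, so p-values measure only the spread between these libraries, which may be technical.

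The libraries held 9262047 to 11213292 counts. Levels are given as counts scaled to a common library size (CPM), with scaling by TMM, a factor meant to remove differences in library composition. The TMM factors were 1.15 and 1.18 in untreated cells and 0.873 and 0.849 at day 6, so CPM values rest on them. Spi1, the gene of PU.1, reached 217 and 229 CPM at day 6, against 8.34 and 12.9 CPM in untreated cells. The 8 markers of immature myeloid leukaemia cells, had a summed level of 6454 and 6327 CPM at day 6, against 17289 and 15408 CPM in untreated cells, most of it from Elane and Ctsg. At day 6 Elane, Ctsg, Prtn3, Kit and Cebpa were lower, Mpo did not pass the test, and 2 were higher: Ms4a3 (log2 fold change 0.35) and Ptprc, the pan-leukocyte antigen CD45, at 680 and 682 CPM, against 28.01 and 26.6 CPM in untreated cells (log2 fold change 4.64). One library stood apart: in day 2 replicate 1 a single gene took 13.3% of the counts, against 0.0883% to 0.149% in the other libraries.

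The 77 genes together took 0.221% and 0.217% of all counts at day 6, against 0.346% and 0.329% in untreated cells. On the TMM scale their summed level was 3022 and 2791 CPM in untreated cells, 3053 and 3049 CPM at day 2, 2882 and 2779 CPM at day 4, and 2529 and 2551 CPM at day 6. Both day 6 libraries lay below every other library, while the untreated and day 4 libraries overlapped. The day 6 mean was 2540 ± 15.4 CPM, against 2906 ± 163.1 CPM in untreated cells (SD, n = 2 each), which is 87.4% of the untreated level. The small subunit stood at 84.7% and the large subunit at 88.4% of its untreated sum. In bulk RNA of this kind, fewer cells of a type and less RNA per cell cannot be told apart.

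Levels can be compared between genes only per length, here as counts per length scaled to a common sum (TPM). The median member had 64.5 and 69.0 TPM in untreated cells, 49.98 and 66.8 TPM at day 2, 56.8 and 54.9 TPM at day 4, and 39.7 and 37.6 TPM at day 6. TPM carries no TMM factor, so it also moves with the rest of each library, and day 2 replicate 1, the library with the single heavily counted gene, was the lower of its pair. Although the proteins enter 1 particle, the mRNA levels spanned a wide range: the SD of log2 TPM over members was 1.33 and 1.36 at day 6, against 1.27 and 1.23 in untreated cells. Mrpl33 stood highest, with 574 ± 29.8 TPM at day 6 and 852 ± 15.1 TPM in untreated cells (SD, n = 2 each). It was followed by Mrpl13, Mrps21, Mrpl18 and Mrpl20, which averaged 268, 247, 203 and 196 TPM in untreated cells, and all 5 have bacterial counterparts. By mean TPM over all 8 libraries the lowest were Mrps36, Mrpl1, Mrps25, Mrpl23 and Mrpl17. They averaged 3.90, 9.54, 13.2, 14.4 and 18.3 TPM in untreated cells, where Mrpl35 stood slightly below Mrpl17, at 17.8 TPM. These ranks rest on the deposited gene lengths, which were 6712 bases for Mrpl17, 6076 for Mrps25 and 4170 for Mrpl1. Counted from the highest, Mrpl17, Mrps25 and Mrpl1 ranked 73, 76 and 75 by mean TPM. By mean CPM, which leaves length out, they ranked 19, 45 and 56, whereas Mrps36 and Mrpl23 remained the lowest. In the annotation 6 pseudogenes are named after Mrps36, Mrpl23, Mrpl27 and Mrpl48, so counts of these 4 genes may be split between copies and are uncertain.

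**Figure D1:**
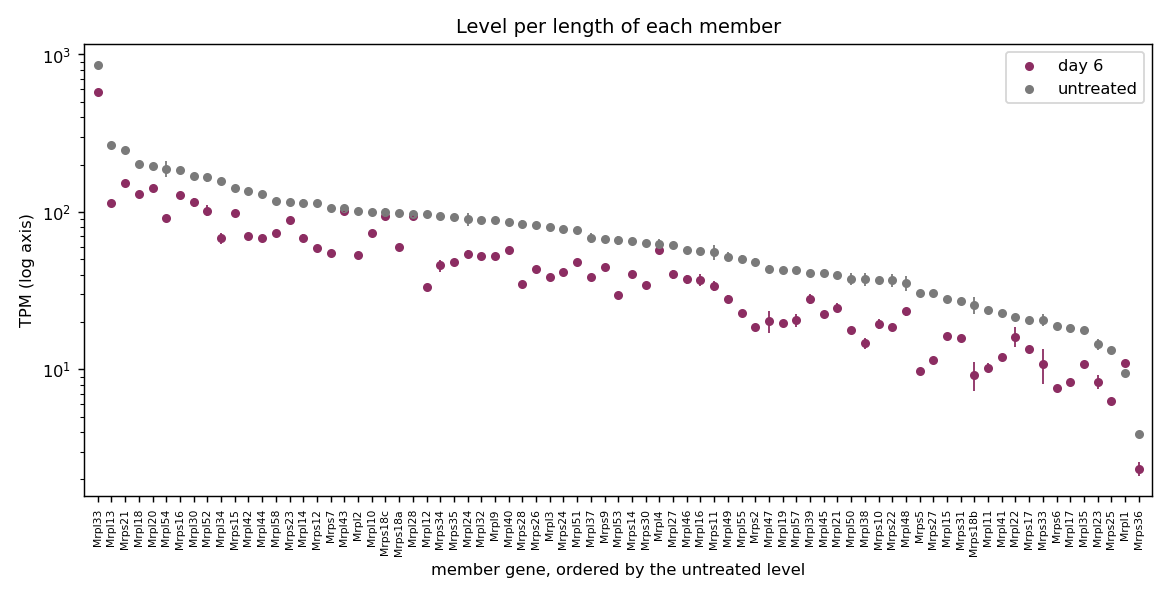
Level per length (TPM, log axis) of each of the 77 members at day 6 and in untreated cells, ordered by the untreated level; points are means and vertical lines join the 2 libraries. Mrpl33 is highest, at 574 TPM at day 6 and 852 TPM in untreated cells, and Mrps36 lowest, at 2.33 TPM at day 6 and 3.90 TPM in untreated cells.

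After 6 days of Dox, with PU.1 restored for longest, 37 of the 77 members were lower than in untreated cells and 5 were higher (edgeR, adjusted p under 0.05). Of all genes tested, 31.6% were called lower and 32.0% higher. The median log2 fold change of the members was -0.23, against -0.04 for all genes, and 64 of the 77 values were below 0. Both day 6 libraries lay below both untreated libraries in 49 members, against 42.4% of all genes, and above both in 6 members, against 39.7% of all genes. Most shifts were small: 11 of the called falls and 1 of the called rises exceeded 1.5-fold. Among all 12330 genes tested, 2461 called falls and 2666 called rises did so. Without the TMM factor, scaling by total counts alone gave 67 members lower and 0 higher. That scaling moved the median of all genes to -0.47 and that of the members to -0.66. The shares of all genes called under this and the other alternative settings are not given here, so such counts stand without a background. DESeq2 called 25 members lower and 5 higher, all of them also called by edgeR, and leaving out day 6 replicate 2 left 24 members lower.

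**Figure D2:**
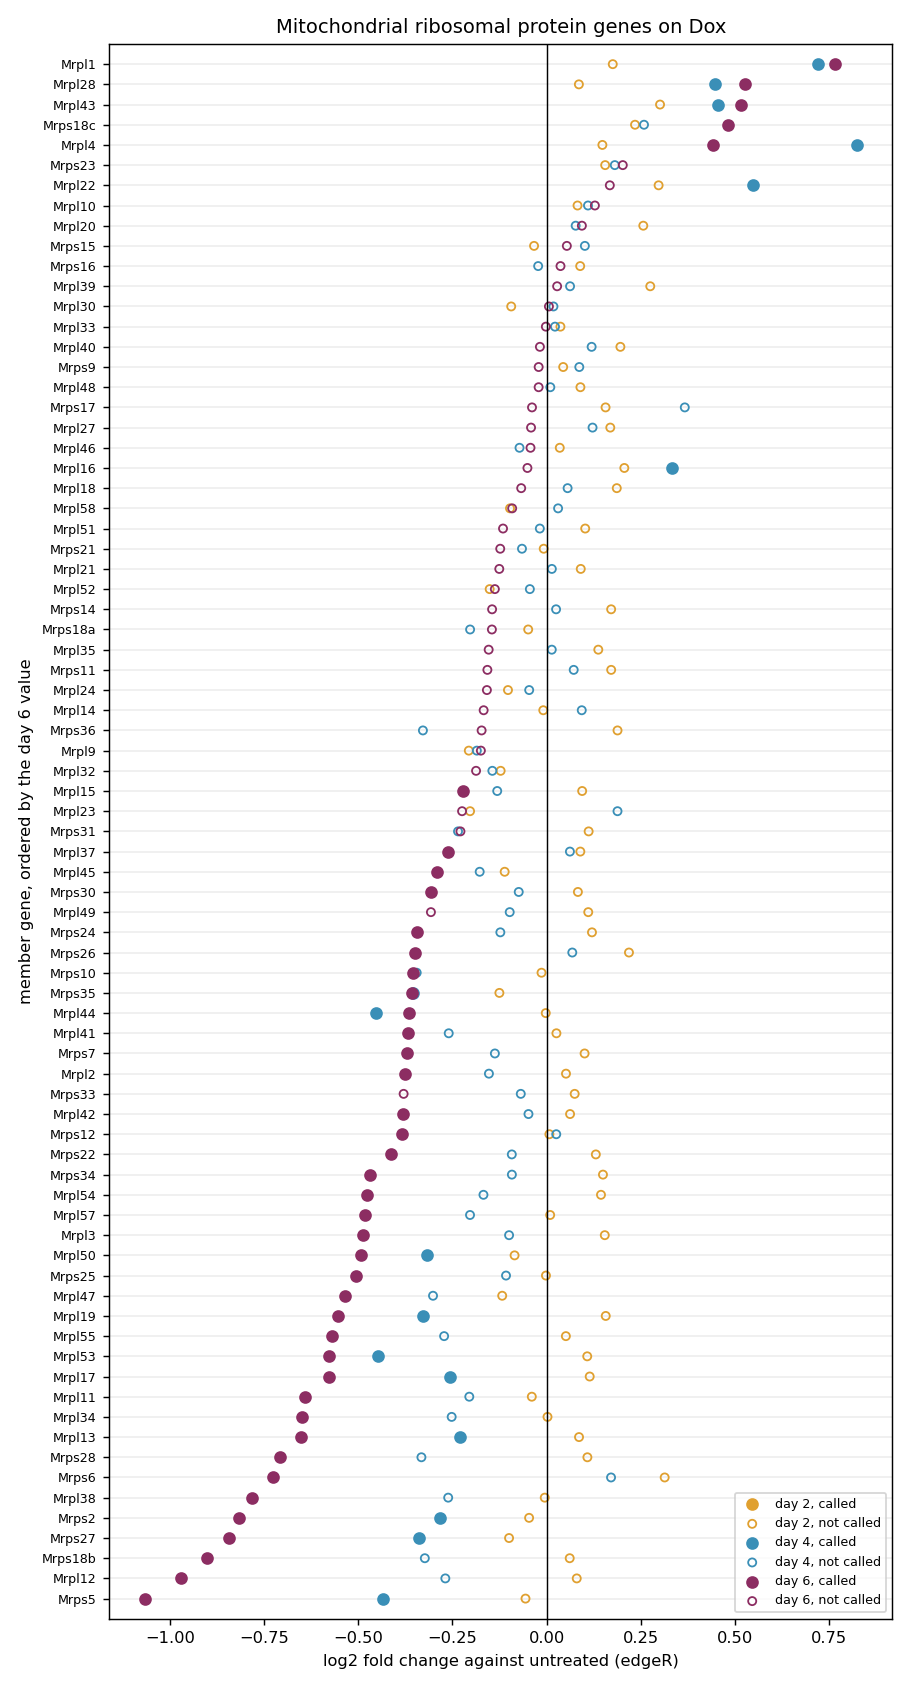
The log2 fold change of each of the 77 members at day 2, 4 and 6 against untreated cells, ordered by the day 6 value; filled points passed the edgeR test and open points did not. At day 6, 37 filled points lie below 0 and 5 above it, and no day 2 point is filled.

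The deepest fall at day 6 was that of Mrps5, a small subunit protein with a bacterial counterpart, gene ID 77721 at chr2:127587426-127603986. Mrps5 had 9.01 and 8.64 CPM at day 6, against 18.6 and 18.4 CPM in untreated cells. The groups were well apart, and the day 4 libraries, at 15.4 and 11.9 CPM, lay between them. The log2 fold change was -1.07 ± 0.16 (SE; edgeR, adjusted p = 0.000126).

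Mrpl12, gene ID 56282 at chr11:120484637-120488754, belongs to the stalk of the large subunit that recruits translation factors, and its human protein has also been reported to bind the mitochondrial RNA polymerase. It had 20.4 and 19.1 CPM at day 6, against 38.4 and 39.0 CPM in untreated cells, a log2 fold change of -0.97 ± 0.13 (SE; edgeR, adjusted p = 4.10e-05). Its day 2 libraries, at 43.0 and 38.9 CPM, overlapped the untreated ones. At day 4 it had 35.8 and 28.3 CPM, below both untreated libraries but without a call against them (log2 fold change -0.27, adjusted p = 0.0812). It was called lower than at day 2 (log2 fold change -0.35, adjusted p = 0.0381), a call lost without either day 2 library, without day 4 replicate 2, without either day 6 library, in DESeq2 and when the 2 groups were fitted alone. Day 6 was below day 4 by a log2 fold change of -0.70 ± 0.13 (adjusted p = 0.00213).

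Mrps2, which has a bacterial counterpart on the solvent side of the small subunit, had 24.4 and 23.9 CPM at day 6, against 42.0 and 43.1 CPM in untreated cells (log2 fold change -0.82, adjusted p = 3.18e-05). Mrps27, a pentatricopeptide repeat protein found only in mitoribosomes, had 12.5 and 14.05 CPM at day 6, against 24.9 and 22.8 CPM in untreated cells (log2 fold change -0.84, adjusted p = 9.86e-05). For both genes the day 6 libraries were the lowest of the 8. The day 6 falls of Mrps5, Mrpl12, Mrps2 and Mrps27 were also the 4 that passed the test against a minimum change of 1.5-fold.

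Mrpl38, a large subunit protein without a bacterial counterpart, had 13.7 and 12.2 CPM at day 6, against 21.1 and 23.5 CPM in untreated cells (log2 fold change -0.78, adjusted p = 0.00103). Mrps28 had 15.4 and 16.2 CPM at day 6, against 28.3 and 23.4 CPM in untreated cells (log2 fold change -0.71, adjusted p = 0.00186). Mrps6 was among the least counted, with 3.71 and 3.78 CPM at day 6, against 6.55 and 5.87 CPM in untreated cells (log2 fold change -0.73, adjusted p = 0.0114). Its groups did not overlap, but its call was lost without day 6 replicate 1, without day 6 replicate 2 or without untreated replicate 1, and in DESeq2. Exons of Mrps6 overlap those of Slc5a3 on the same strand over 159 bases, and Slc5a3 had a day 6 log2 fold change of -1.74, so the counts of Mrps6 are uncertain too.

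Mrpl13, next to Mrpl33 in level per length, had 94.7 and 83.7 CPM in untreated cells, 98.1 and 91.4 CPM at day 2, 76.9 and 75.3 CPM at day 4, and 55.5 and 57.9 CPM at day 6. The day 4 and day 6 libraries were apart from all earlier ones, and the day 6 log2 fold change against untreated cells was -0.65 ± 0.09 (SE; adjusted p = 4.46e-05). Mrps25 and Mrpl17, 2 of the lowest members by TPM but not by CPM, also fell at day 6. Their log2 fold changes were -0.51 (edgeR, adjusted p = 0.00590) and -0.58 (adjusted p = 0.000273). The call of Mrps25 was lost without day 6 replicate 1. Its exons overlap those of Nr2c2, a nuclear receptor, on the opposite strand over 4590 of 6576 bases, and Nr2c2 had a day 6 log2 fold change of 0.18. Strandedness is not stated for these libraries, so reads in such an overlap could belong to either gene, and both the level and the change of Mrps25 are uncertain.

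Of the 5 members with the highest TPM, Mrpl13 was the 1 called at day 6. Mrpl33 had 170.2 and 166.2 CPM at day 6, against 177 and 160 CPM in untreated cells (log2 fold change -0.00 ± 0.08, SE; adjusted p = 0.984). Mrps21, Mrpl18 and Mrpl20 had log2 fold changes of -0.12, -0.07 and 0.09 at day 6 and did not pass the test. Divided by mean TPM, 16 of the upper 39 members were lower and 4 higher at day 6, with a median log2 fold change of -0.16. Among the lower 38 members, 21 were lower and 1 higher, with a median of -0.33. For all genes tested the shares were 31.6% lower and 32.0% higher. The division rests on the deposited gene lengths: Mrpl17, ranked 73 by mean TPM and 19 by mean CPM, stood among the lower members. The mean TPM was taken over all libraries, day 6 included, so a member's change at day 6 also moves its own place in the division. A difference between the upper and lower members was not tested.

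At day 6 the 5 members called higher included 4 of the large subunit. Mrpl1, gene ID 94061 at chr5:96209498-96266727, whose bacterial counterpart forms the mobile stalk beside the tRNA exit site, had 27.2 and 30.04 CPM at day 6, against 17.5 and 16.3 CPM in untreated cells. Its day 4 libraries, at 28.5 and 27.0 CPM, were already at that level. The day 6 log2 fold change was 0.76 ± 0.11 (SE; edgeR, adjusted p = 0.000118).

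Mrpl28, gene ID 68611 at chr17:26123503-26126613, had 62.6 and 64.1 CPM at day 6, against 47.0 and 40.9 CPM in untreated cells (log2 fold change 0.53, adjusted p = 0.000504). Mrpl43, gene ID 94067 at chr19:45005014-45006442 and without a bacterial counterpart, had 75.9 and 78.5 CPM at day 6, against 55.8 and 52.3 CPM in untreated cells (log2 fold change 0.52, adjusted p = 0.000173). Mrpl43 came closest to a call at day 2, with 63.5 and 69.5 CPM and an adjusted p of 0.0515. Its exons overlap those of Twnk, the mitochondrial DNA helicase, over 507 bases on the opposite strand, and Twnk had a day 6 log2 fold change of -1.36. Reads in this overlap could likewise belong to either gene.

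Mrpl4, gene ID 66163 at chr9:21001252-21008839, whose bacterial counterpart lines the exit tunnel of the nascent chain, followed another course. It had 33.5 and 35.0 CPM in untreated cells, 37.5 and 38.4 CPM at day 2, 60.7 and 60.5 CPM at day 4, and 45.0 and 48.1 CPM at day 6. No group overlapped another, and the peak was at day 4. The log2 fold change at day 4 against untreated cells was 0.82 ± 0.08 (SE; edgeR, adjusted p = 8.98e-06) and that of day 6 against day 4 was -0.38 ± 0.08 (adjusted p = 0.00534). The second of these was lost without day 6 replicate 1. The 5 rises at day 6 kept a positive sign under every alternative run, but none passed the test with total counts alone or against a minimum change of 1.5-fold.

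**Figure D3:**
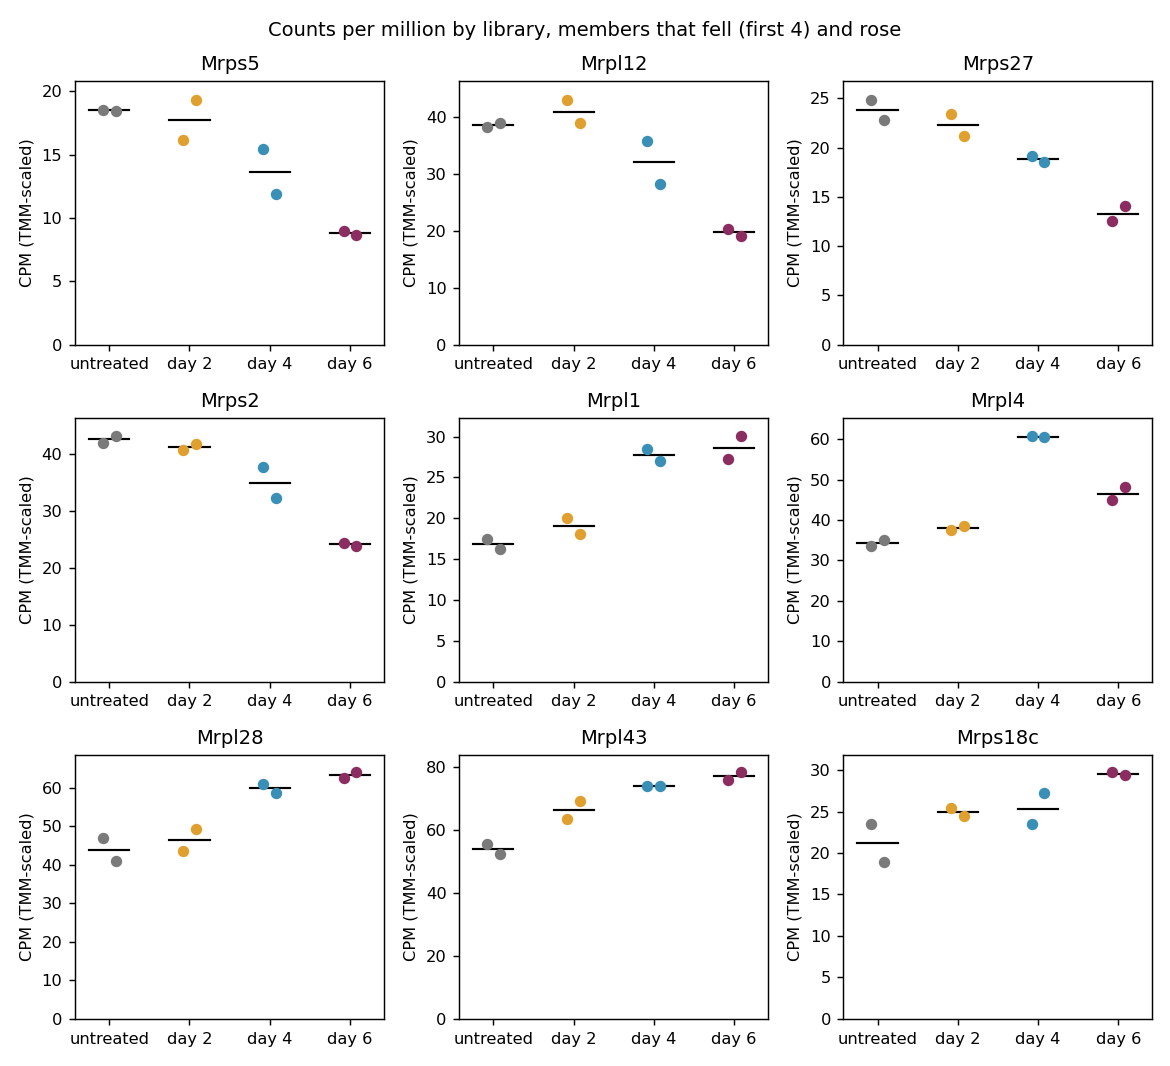
CPM (TMM-scaled) in every library for 4 members that fell (Mrps5, Mrpl12, Mrps27, Mrps2) and 5 that rose; points are libraries and black lines group means. Day 6 libraries of Mrps5 lie at 9.01 and 8.64 CPM, below the untreated 18.6 and 18.4 CPM, while Mrpl4 is highest at day 4, at 60.7 and 60.5 CPM.

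Mrps18a, Mrps18b and Mrps18c are 3 paralogues of 1 bacterial protein, of which Mrps18b and Mrps18c sit in the small subunit and Mrps18a in the large. Mrps18b, gene ID 66973 at chr17:35910380-35916440, had 7.20 and 4.97 CPM at day 6, against 10.4 and 12.3 CPM in untreated cells (log2 fold change -0.90 ± 0.25, SE; edgeR, adjusted p = 0.00881). Mrps18c, gene ID 68735 at chr5:100798759-100804467, had 29.7 and 29.4 CPM at day 6, against 23.5 and 18.9 CPM in untreated cells (log2 fold change 0.48 ± 0.13, SE; adjusted p = 0.00637). Mrps18a had 32.4 and 32.5 CPM at day 6, against 37.9 and 33.95 CPM in untreated cells (log2 fold change -0.15 ± 0.10, SE; adjusted p = 0.238). Thus 1 paralogue fell, 1 rose and 1 did not pass the test. In all 3 the day 6 and untreated groups did not overlap. Such a gap was common, with 42.4% of all genes below and 39.7% above without overlap. The fall of Mrps18b was lost without day 6 replicate 2 (log2 fold change -0.65) and without untreated replicate 2 (-0.77).

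Mrps30 is also named for the small subunit but sits in the large, and had 34.00 and 34.9 CPM at day 6, against 44.4 and 40.8 CPM in untreated cells (log2 fold change -0.31, adjusted p = 0.0114). This call was lost without either day 6 library, without untreated replicate 1 and in DESeq2. Mrps36, now known as a component of the oxoglutarate dehydrogenase complex rather than of the mitoribosome, had 1.13 and 0.972 CPM at day 6, against 1.19 and 1.17 CPM in untreated cells, and did not pass the test (adjusted p = 0.735). At this depth it was too low for small differences to be detectable.

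By place in the particle, 15 of the 26 small subunit members were lower and 1 higher at day 6, with a median log2 fold change of -0.36. Of the 50 large subunit members, 22 were lower and 4 higher, with a median of -0.18. By origin, 18 of the 44 members classed with a bacterial counterpart were lower and 4 higher (median -0.16). Of the 32 classed as specific to mitochondria, which include the paralogues Mrps18a and Mrps18b, 19 were lower and 1 higher (median -0.35). For all genes tested the shares at day 6 were 31.6% lower and 32.0% higher. No test of the difference between the classes of members was made.

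At day 2 of Dox none of the 77 members was called in either direction, against 4.17% of all genes called higher and 1.95% lower. With an unadjusted p under 0.05 there were 7 members, against 21.5% of all genes, and DESeq2 and limma-voom also called 0, whereas RLE size factors and the fit without a filter called 1 higher and leaving out untreated replicate 1 called 3 higher. The median log2 fold change was 0.09, against 0.00 for all genes, and 54 of 77 values were above 0. Both day 2 libraries lay above both untreated libraries in 22 members and below in 6, against 25.4% and 23.3% of all genes. Scaled by total counts the median was -0.10, against -0.17 for all genes, so the sign of the day 2 shift depended on the scaling.

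At day 4, 10 members were lower than in untreated cells and 6 higher, against 22.0% of all genes lower and 26.1% higher. The members' median log2 fold change was -0.07, against -0.02 for all genes. Both day 4 libraries lay below both untreated libraries in 30 members and above in 12, against 36.4% and 36.7% of all genes. Those lower were Mrpl13, Mrpl17, Mrpl19, Mrpl44, Mrpl50, Mrpl53, Mrps2, Mrps5, Mrps27 and Mrps35, and all 10 were also lower at day 6. Those higher were Mrpl1, Mrpl4, Mrpl16, Mrpl22, Mrpl28 and Mrpl43. The count of lower members was 32 with total counts alone (2 higher), 5 when the 2 groups were fitted alone, 3 in DESeq2, and 3 without untreated replicate 1 or without day 4 replicate 2.

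Among the largest of these falls was that of Mrpl44, a protein related to ribonuclease III, with 52.5 and 62.1 CPM at day 4, against 85.1 and 71.7 CPM in untreated cells (log2 fold change -0.45, edgeR, adjusted p = 0.00843). This call was lost without untreated replicate 1 and without day 4 replicate 1, and at day 6 the gene stood no lower, at 61.8 and 60.0 CPM. Mrps35 likewise reached its lower level by day 4, with 32.2 and 33.0 CPM at day 4 and 31.2 and 33.8 CPM at day 6, against 43.1 and 40.2 CPM in untreated cells. Of these 2 genes, the day 4 call of Mrps35 was lost without untreated replicate 1 or day 4 replicate 1, both day 6 calls without day 6 replicate 1, and that of Mrpl44 also without day 6 replicate 2 or untreated replicate 1. Mrpl19 had 72.3 and 72.9 CPM at day 4, against 96.7 and 85.6 CPM in untreated cells (log2 fold change -0.33, adjusted p = 0.00676), and 63.2 and 61.0 CPM at day 6. Exons of Mrpl19 overlap those of Gcfc2 on the opposite strand over 1962 bases, and Gcfc2 had a day 6 log2 fold change of -0.71. Those of Mrpl53 overlap exons of Gm42688, a protein-coding gene, on the same strand over 695 of 790 bases. Gm42688 was not found by symbol among the genes tested, and the counts of Mrpl53 may be uncertain. Mrpl53 had 13.8 and 11.6 CPM at day 4, against 16.9 and 17.9 CPM in untreated cells (log2 fold change -0.45, adjusted p = 0.0232), a call that was lost without untreated replicate 2 or day 4 replicate 2 and in DESeq2.

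Mrpl16 and Mrpl22 were higher at day 4 but not at day 6. Mrpl16 had 28.5 and 25.9 CPM in untreated cells, 30.9 and 31.9 CPM at day 2, 36.8 and 31.6 CPM at day 4, and 27.9 and 24.6 CPM at day 6. Its day 4 log2 fold change against untreated cells was 0.33 (edgeR, adjusted p = 0.0312) and that of day 6 against day 4 was -0.38 (adjusted p = 0.0290). Both calls of Mrpl16 were lost without day 4 replicate 1 and in DESeq2, the first also without untreated replicate 2, with total counts alone and when the 2 groups were fitted alone, and the second also without either day 6 library. Mrpl22 was low throughout, with 8.89 and 10.9 CPM at day 4, against 6.98 and 6.54 CPM in untreated cells (log2 fold change 0.55, adjusted p = 0.0406), and was lost without either untreated library, without day 4 replicate 2, with total counts alone and in DESeq2.

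Between successive days, 9 members were lower and 3 higher at day 4 than at day 2, against 15.9% of all genes lower and 21.8% higher. At day 6 against day 4, 19 were lower and 0 higher, against 14.0% of all genes lower and 15.9% higher, with 28 at an unadjusted p under 0.05 in either direction (40.9% of all genes) and 0 higher also in DESeq2 and limma-voom. The members' median log2 fold change was -0.14 in the first of these steps and -0.18 in the second. The later libraries lay below the earlier ones without overlap in 44 members at the first step (35.1% of all genes) and in 47 at the second (36.4%), and above them in 12 (35.4%) and in 4 (34.6%). The largest fall of the second step was that of Mrps6, with 3.71 and 3.78 CPM at day 6, against 7.44 and 6.53 CPM at day 4 (log2 fold change -0.90, adjusted p = 0.00896), a call that was lost without day 4 replicate 1, without either day 6 library and in DESeq2. The first count was 5 in DESeq2, 3 or 4 without a day 2 library, 2 without day 4 replicate 2 and 14 without untreated replicate 2. The second count was 31 with total counts, 5 in DESeq2, 4 without day 4 replicate 1 and 6 without either day 6 library.

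In group means, 50 of 77 members (64.9%) declined stepwise over days 2, 4 and 6, against 35.6% of all genes tested. The lowest of the 4 means was at day 6 in 56 members (72.7%), against 39.7% of all genes. The highest was at day 2 in 44 members (57.1%), against 19.99% of all genes, but this peak rested on the scaling: with total counts alone, tried after seeing the data, it held in 8 members, and untreated cells were highest in 62. The lowest mean stayed at day 6 in 72 members and the stepwise decline in 63 with total counts, against 58.4% and 48.5% of all genes. Over all 4 groups, 42 members (54.5%) differed somewhere, against 65.1% of all genes, a count that was 25 without day 6 replicate 1, 24 without day 6 replicate 2, and 27 in DESeq2. Against untreated cells, 27 members were called lower at day 6 only (12.3% of all genes), and 33 were called at no day (31.0% of all genes).

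Other genes of the pathway were counted in the same way at day 6, when 31.6% of all genes were called lower and 32.0% higher. Of the 5 mitoribosome proteins with other symbols, 4 were lower and 1 higher, with a median log2 fold change of -0.36: Gadd45gip1 was at -0.86 and Ptcd3 at -0.67, and Aurkaip1 at 0.55. Of 26 assembly factors, 13 were lower and 1 higher (median -0.38). The largest falls were those of Mrm3, a methyltransferase of the large ribosomal RNA, at -1.45, of Rcc1l at -1.32 and of Mettl15, a methyltransferase of the small ribosomal RNA, at -1.05. The 1 assembly factor that rose was Rbfa, at 0.32, named after its values were seen. Of 15 translation factors, 9 were lower and 1 higher (median -0.55). Guf1, the counterpart of the bacterial elongation factor LepA, was at -1.12, the peptide deformylase Pdf at -0.96 and the ribosome recycling factor Mrrf at -0.84. The 1 that rose was the initiation factor Mtif3, at 0.40, named after its values were seen.

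Of 17 genes of mitochondrial transcription and RNA processing, 8 were lower and 0 higher (median -0.36), with Fastkd1 at -1.74, the ribonuclease Prorp at -1.38 and the mitochondrial RNA polymerase Polrmt at -0.95. The 13 mRNAs encoded in mitochondrial DNA, which the mitoribosome translates, mostly did not pass the test: 1 was lower (ND2, -0.31) and 1 higher (COX3, 0.35), with a median of -0.08. Their summed level was 19608 and 19762 CPM at day 6, against 20024 and 19446 CPM in untreated cells, so these groups overlapped. Of the 88 cytosolic ribosomal protein genes, 50 were lower and 2 higher (median -0.33). Of the 79 nuclear subunits of the respiratory chain, 40 were lower and 5 higher (median -0.31). Beside these counts stand 31.6% of all genes lower and 32.0% higher. A difference between the mitochondrial ribosomal proteins, at a median of -0.23, and the cytosolic ribosomal proteins or respiratory chain subunits was not tested.

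**Figure D4:**
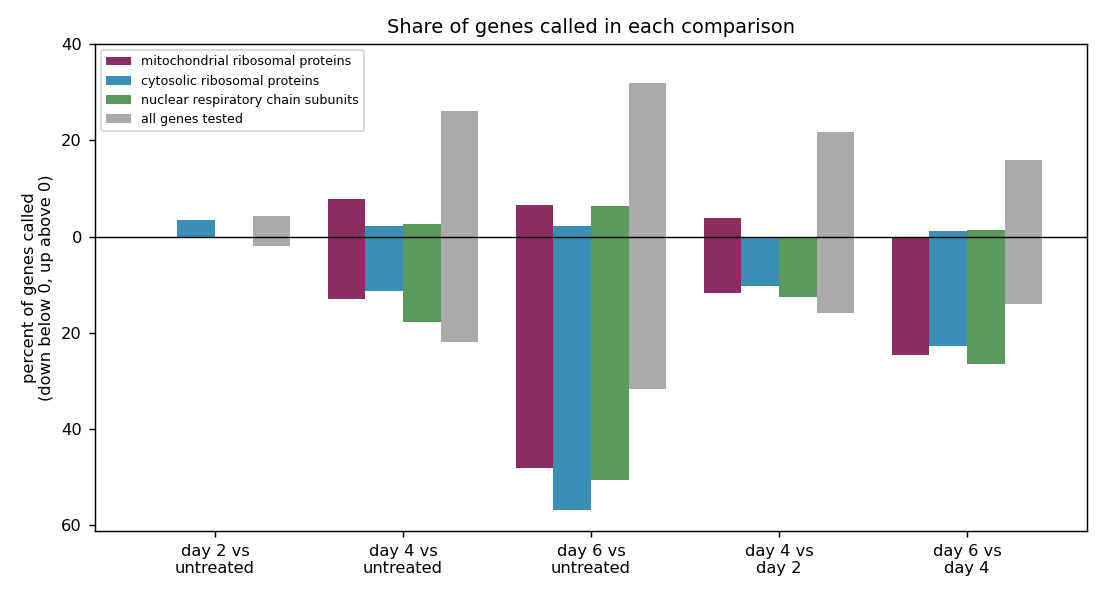
Percent of genes called higher (above 0) and lower (below 0) by edgeR in each of the 5 comparisons, for the 77 mitochondrial ribosomal proteins, 88 cytosolic ribosomal proteins, 79 nuclear respiratory chain subunits and all 12330 genes tested. At day 6 against untreated cells 48.1% of the mitochondrial ribosomal proteins were lower and 6.49% higher, against 31.6% and 32.0% of all genes.

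Markers of other cells that the gate could hold were also measured. The 6 measured erythroid markers summed to 40.8 and 64.5 CPM at day 6, against 14.5 and 6.62 CPM in untreated cells, and 5 of the 6 rose. The 10 B cell markers summed to 37.0 and 51.1 CPM at day 6, against 84.7 and 41.4 CPM in untreated cells. The 2 measured T and NK cell markers summed to 106 and 93.7 CPM at day 6, against 132 and 112 CPM in untreated cells, and the 4 of stroma and endothelium to 140 and 136 CPM at day 6, against 186.9 and 167.4 CPM in untreated cells. Nearly all of the first sum was Nkg7, at 105 and 93.1 CPM at day 6, against 130.4 and 111 CPM in untreated cells, while Lck was below 2 CPM in these libraries. Nearly all of the second was Pecam1, at 135 and 130.4 CPM at day 6, against 119 and 106 CPM in untreated cells, and Pdgfrb, at 2.81 and 3.78 CPM at day 6, against 62.8 and 57.8 CPM in untreated cells. In day 6 and untreated libraries no measured marker of these 4 lists was at 0. The part of such cells, and of the changes in myeloid markers, in the members' changes was not tested.

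Many members have a close neighbour. In GENCODE M21, 32 of the 77 (41.6%) have a protein-coding gene starting within 1000 bases on the opposite strand, against 16.9% of 11312 tested protein-coding genes. Exons of 19 members overlap those of another gene in the tables, 17 of these on the opposite strand. Mrps18c starts 29 bases from Helq and Mrps18b 45 bases from Ppp1r10.

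The start regions of 4 members that fell or rose are shown because they differ in the motifs they hold. They are from RefSeq (GRCm38.p6), run 5′ to 3′ on the gene's strand from 250 bases before to 50 bases after the start, and carry capitals where a motif below was matched on either strand. Mrpl12 (fell; chr11:120484387-120484686, plus strand) holds the NRF1 motif 81 bases before the start. Mrps18b (fell; chr17:35916391-35916690, minus strand) holds the SP and KLF motif 65 bases before it and the ETS motif 44 bases after it. Mrps18c (rose; chr5:100798509-100798808, plus strand) holds the E-box just upstream of an ETS motif that begins 156 bases before it. Mrpl43 (rose; chr19:45006393-45006692, minus strand) holds the ETS motif 56 and 12 bases before it. The start regions of Mrps5 (fell) and Mrpl1 (rose) are not printed. Of the motifs below, both hold only that of SP and KLF, Mrps5 243 bases and Mrpl1 185 and 81 bases before the start used. For Mrpl1 the region was chr5:96209865-96210164, which lies inside the gene bounds given above, as these begin at base 96209498. Its motif positions thus refer to an inner start, and the region at the outer bound was not shown. This motif thus stood in members of both directions.
Mrpl12: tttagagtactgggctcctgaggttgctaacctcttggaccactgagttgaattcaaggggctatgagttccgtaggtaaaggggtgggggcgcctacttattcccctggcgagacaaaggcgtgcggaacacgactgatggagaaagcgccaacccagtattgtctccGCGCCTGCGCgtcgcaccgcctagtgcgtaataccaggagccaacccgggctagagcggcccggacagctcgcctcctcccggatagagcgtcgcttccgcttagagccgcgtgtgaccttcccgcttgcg
Mrps18b: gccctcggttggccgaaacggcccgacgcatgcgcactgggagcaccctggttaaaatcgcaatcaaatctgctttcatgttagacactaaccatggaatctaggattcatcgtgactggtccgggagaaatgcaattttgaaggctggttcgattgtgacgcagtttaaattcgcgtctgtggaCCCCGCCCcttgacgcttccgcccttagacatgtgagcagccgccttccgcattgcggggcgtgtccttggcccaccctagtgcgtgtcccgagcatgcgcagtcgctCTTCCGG
Mrps18c: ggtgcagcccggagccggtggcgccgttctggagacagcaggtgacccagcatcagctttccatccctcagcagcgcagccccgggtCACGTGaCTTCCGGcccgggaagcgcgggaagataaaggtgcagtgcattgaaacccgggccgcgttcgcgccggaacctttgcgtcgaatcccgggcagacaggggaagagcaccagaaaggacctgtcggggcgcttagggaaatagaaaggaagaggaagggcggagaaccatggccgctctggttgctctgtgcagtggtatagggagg
Mrpl43: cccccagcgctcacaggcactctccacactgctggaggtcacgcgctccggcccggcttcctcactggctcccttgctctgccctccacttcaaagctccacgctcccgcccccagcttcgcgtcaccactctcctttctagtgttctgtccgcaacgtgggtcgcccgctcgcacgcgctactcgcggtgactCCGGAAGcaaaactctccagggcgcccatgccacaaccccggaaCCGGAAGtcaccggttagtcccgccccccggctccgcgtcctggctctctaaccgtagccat

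Promoters of 68 members and of 9307 other tested protein-coding genes were searched on both strands for fixed strings of letters. The ETS core with its flank (CCGGAAG), bound by many factors of the ETS family, to which PU.1 belongs, was in 25 member promoters (36.8%), against 19.3% of the other genes. A longer form typical of PU.1 (GAGGAAGT) was in 1 (1.47%), against 3.36%. The motif of NRF1, a regulator of nuclear genes for mitochondria, was in 13 (19.1%), against 11.1%, and that of YY1 in 5 (7.35%), against 2.28%. The SP and KLF motif (CCCCGCCC) was in 16 (23.5%), against 33.6%, and the E-box (CACGTG) in 4 (5.88%), against 10.3%. No pair of these letter strings contains the other. The ETS motif was in 10 of 29 promoters of members that fell at day 6 (34.5%), in 2 of 4 of those that rose and in 13 of 35 of those not called (37.1%). A match is only a description of these letters.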

How the data were processed

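RNA-seq libraries of sorted AML410 cells (4 groups of 2) were analysed. Per the file headers, the deposited columns are Entrez gene ID, gene length and raw count, the last without normalisation. The build mm10 and the tools featureCounts, limma 3.22.0, edgeR 3.8.2 and CASAVA 1.8.2 are listed in the submitters' processing notes. Aligner, settings and strandedness: not given in the sources used here. The third highest CPM of every gene was at least 0.501, so low genes are not in these tables.

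RefSeq (GRCm38.p6) gave symbols to 12555 of 12830 IDs; genes without one hold 2.24% of counts. filterByExpr removed 500 genes (0.0267% of counts), and TMM scaled the libraries. One fit of all 8 libraries used the edgeR 4.0.16 quasi-likelihood test in R 4.3.3 without covariates, with 12330 p-values adjusted by Benjamini-Hochberg and called under 0.05. The spread that edgeR terms the biological coefficient of variation was 8.34% (residual degrees of freedom 4, prior 7.08). Between these libraries it may be technical. TPM was computed from counts and deposited lengths. SEs were obtained by dividing log2 fold changes by the root of F. The test was checked on simulated data with few changed genes, about as many raised as lowered, and 1 fixed spread. That check could not probe the scaling where many genes change. Scaled without TMM, libraries of a group differed by more than counting noise, and they were kept as 2. That measure also moves with library composition, so it does not give the spread between replicates alone. Alternatives were RLE, total counts, no filter, DESeq2 1.42.0, limma-voom 3.58.1, 2 groups alone, a replicate block, a minimum change of 1.5-fold and each library left out.

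The members, lists and assignment to subunits were chosen with earlier results of these data known. Named members are the 6 largest called rises and falls against untreated cells, the 4 largest between successive days, those called in opposite directions, the 5 highest and lowest by TPM, the Mrps18 paralogues and members placed elsewhere than their name says. From each pathway list, up to 3 called genes with the largest change are named.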

Additional observations from a re-analysis of the deposited data

How the results depend on the processing

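No named call changed sign under any alternative, but with total counts alone the members' day 2 median turned from above to below 0, and the count of members highest at day 2 went to 8, against 44 with TMM, while those highest in untreated cells numbered 62, against 16. Scaling by total counts alone gave, at day 6, 67 members lower and 0 higher, at day 4, 32 lower and 2 higher, at day 6 against day 4, 31 lower, and 64 members that differed between any groups; the medians became -0.66 (day 6), -0.32 (day 4), -0.10 (day 2), -0.22 (day 4 against day 2) and -0.36 (day 6 against day 4), while the medians of all genes were -0.47, -0.27, -0.17, -0.09 and -0.20. Testing for changes beyond 1.5-fold left 4 lower and 0 higher at day 6, 0 lower and 1 higher at day 4, 0 lower and 0 higher at day 4 against day 2, and 0 lower at day 6 against day 4. DESeq2 called 25 lower and 5 higher at day 6, 3 lower at day 4, 5 lower at day 4 against day 2, 5 lower at day 6 against day 4, and 27 that differed at all. Fitting 2 groups alone called 5 lower at day 4. RLE and the fit without a filter each called 1 higher at day 2. The cause of these shifts was not tested, apart from the larger change that the 1.5-fold test demands. Shares of all genes called under the alternatives, left-out libraries included, are not given here, so the member counts stand without a background.

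With 1 library left out, the members called lower ranged from 24 to 38 at day 6, 3 to 11 at day 4, 2 to 14 at day 4 against day 2 and 4 to 22 at day 6 against day 4. Those called higher ranged from 0 to 3 at day 2, 4 to 7 at day 4 and 5 to 7 at day 6, and those that differed at all from 24 to 44. A group reduced to 1 library is assumed to vary like the others. The median ranged from -0.30 to -0.22 at day 6 against untreated cells and from -0.21 to -0.16 at day 6 against day 4. Whether a median counts as moved depends on the spread it is set against. The SD of both groups, taken up after seeing the data in place of that of the first group alone, marks 7 of 75 medians as moved, and the first group's SD marked 22.

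Of the 37 falls at day 6, 19 were called in all 15 alternatives other than the 1.5-fold test. The replicate numbers gave no clear sign of pairing: correlations between groups of the differences between replicates 1 and 2 ran from -0.13 to 0.21. Such correlations cannot exclude that libraries were handled in pairs. A replicate block gave 35 members lower and 5 higher at day 6. With 2 libraries a group, small changes of members near 1 CPM such as Mrps36 were beyond this depth.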
